A study of Mus musculus with 3 samples.

Results

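The genes examined here were 40 components of the p53 network and of the apoptotic machinery of the mouse: the p53 family with its regulators and targets, the Bcl2 family, caspases with their activators and inhibitors, and death receptors with their ligand and adaptor. They were taken by gene symbol, with no cut on their values, though earlier results of these data were known. The array annotation gave a probe to 38 of them, and these 38 genes carried 76 probes, out of 19532 genes and 32664 probes with a single gene symbol. Trp53 and Bax had no probe with that symbol and were not analysed here. No filter on low values was applied, so all 38 entered every count.

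RNA came from whole gonads dissected from male E14.5 embryos. The first group was labelled Nanos2-/- Stra8-/-, null for both genes, the second was Nanos2-/- Stra8+/-, null for Nanos2 and heterozygous for Stra8, and the third, the control, was Nanos2+/- Stra8+/-, heterozygous for both, so that no group was wild type. Each group was 1 column of deposited ratios, whose title names replicates 1 and 2. No value therefore has a replicate error, no test was possible, and every difference below is a description of 3 columns. Nanos2 encodes an RNA-binding protein of fetal male germ cells, and Stra8 a factor induced by retinoic acid and needed for entry into meiosis.

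p53 is a transcription factor stabilised by DNA damage and other stress, and it is held in check by Mdm2 and Mdm4. Its relatives p63 and p73 share the DNA-binding domain, and p63 guards the genome of oocytes. In the mitochondrial route to cell death, BH3-only proteins sense damage and oppose the anti-apoptotic members of the Bcl2 family, so that effectors such as Bak1 open the outer mitochondrial membrane. Cytochrome c then assembles with Apaf1 and caspase 9, while the death receptors act from the cell surface through Fadd and caspase 8. Male germ cells that lack Nanos2 are known to be lost by apoptosis later in fetal life.

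The deposited value of a probe is a ratio. For 66 of the 76 probes the middle of the 3 columns lay within 5% of 1, as if each of these had been divided by a middle value of its own. The same held for 62.4% of all array probes, so the pattern does not cover the whole array. A value of about 1 in a column is thus no measure of expression level, levels of different probes cannot be set against each other, and only differences between columns within a probe are read here. Another 3 probes, 2 of Trp63 and 1 of Zmat3, lay below 0.7 in all 3 columns, a range that also held the negative control probe at 0.454, 0.354 and 0.352 in the column labelled Nanos2-/- Stra8-/-, the Nanos2-/- Stra8+/- column and the control column. Such values made up 3.95% of the 76 probes and 18.3% of all array probes. How far a value stood above background cannot be read from the files, and a fold may understate or overstate a difference. The folds of Fasl, Pmaip1 and Casp9 given below also rest on values below 0.7. These were 0.609 and 0.381 for Fasl and 0.556 for Pmaip1 in the control column. For Casp9 the value was 0.511 in the Nanos2-/- Stra8+/- column. Other differences given below rest on such values too, among them those of Bik, Tnf, Casp14, Tnfsf12, Bnipl, Ret and Lhx1. So do those of single probes of Trp63, Mdm4, Bcl2, Apaf1, Diablo and Ptprc.

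The columns were checked by the targeted genes. Nanos2 had a value of 0.397 in the column labelled Nanos2-/- Stra8-/- and 0.364 in the Nanos2-/- Stra8+/- column, against 87.2 in the control column. The single probe of Stra8 had values of 1.34 in the column labelled Nanos2-/- Stra8-/- and 1.13 in the Nanos2-/- Stra8+/- column, against 0.108 in the control column. The Stra8 probe thus goes against the Stra8-/- label unless it lies outside the deleted part, and that position is unstated in the sources used here. Directions drawn from that column rest on its label. Its values were also shifted upward. The median log2 difference of all genes was 0.19 between the column labelled Nanos2-/- Stra8-/- and the control, 0.17 between it and the Nanos2-/- Stra8+/- column, and 0.040 between the Nanos2-/- Stra8+/- column and the control.

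Few of the 38 genes passed 2-fold, in shares like those of all genes. A gene took the median log2 difference of its probes, and 2-fold was the size that counted. In the Nanos2-/- Stra8+/- column against the control, 1 of 38 genes passed 2-fold upward and 1 downward, against 2.35% and 3.16% of all genes. In the column labelled Nanos2-/- Stra8-/- against the control, 2 were higher and 0 lower, against 4.24% and 2.82% of all genes. Between the column labelled Nanos2-/- Stra8-/- and the Nanos2-/- Stra8+/- column, 1 was higher and 0 lower, against 2.04% and 1.03%. At 1.5-fold the Nanos2-/- Stra8+/- column had 3 genes above and 2 below the control, against 5.7% and 6.79% of all genes. The column labelled Nanos2-/- Stra8-/- had 3 above and 1 below the control, against 12.5% and 6.28%. It had 1 above and 0 below the Nanos2-/- Stra8+/- column, against 6.67% and 2.82%. With 38 genes, the counts at 2-fold are near what the share of all genes gives and are no result about these genes as a group.

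The genes behind the counts were 3. Fasl, the ligand of the death receptor Fas, was higher than the control in both columns without Nanos2. Pmaip1, the BH3-only protein Noxa, was 2-fold higher only in the column labelled Nanos2-/- Stra8-/-. Casp9, the initiator caspase of the mitochondrial route, was 2-fold lower only in the Nanos2-/- Stra8+/- column. By this value the remaining 35 genes lay within 2-fold in all 3 comparisons, and 31 of the 38 within 1.5-fold (81.6%, against 75.4% of all genes).

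**Figure D1:**
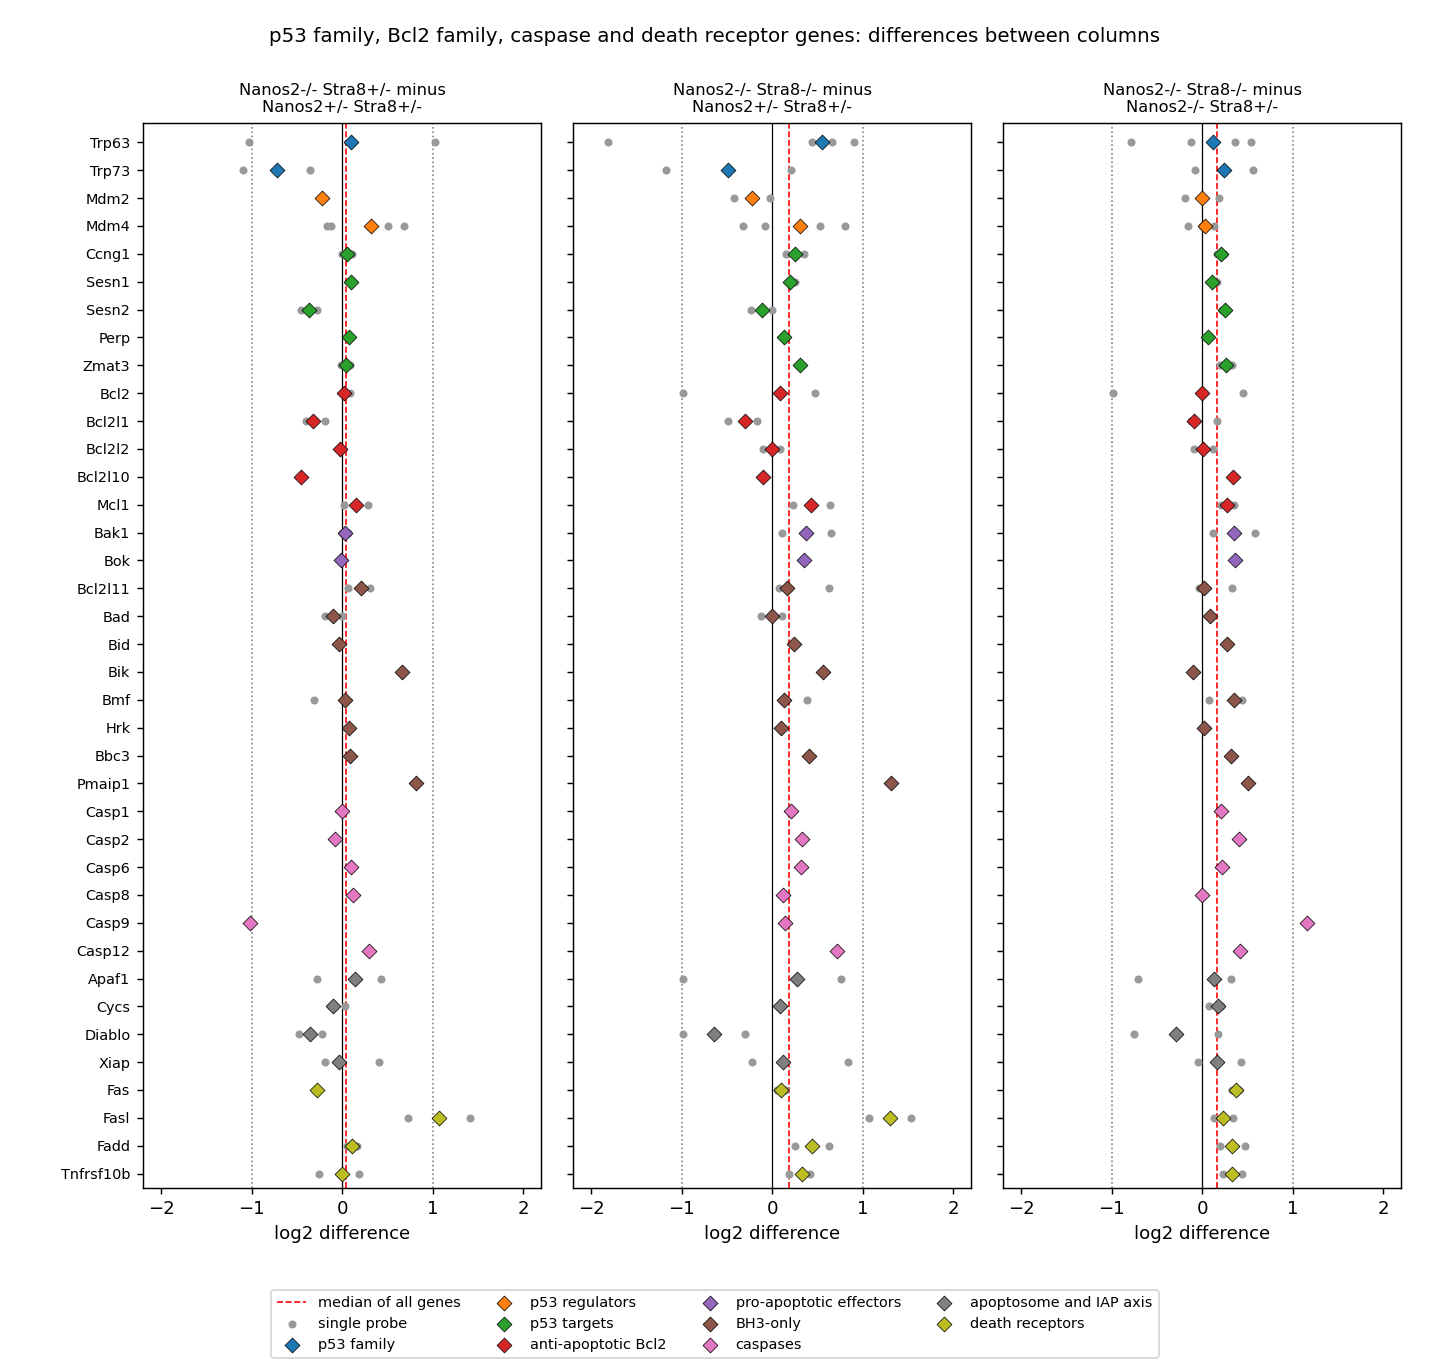
Log2 difference of each gene (diamonds, the median over its probes, coloured by role) and of each single probe (grey points) in the 3 comparisons, with dotted lines at 2-fold and a dashed line at the median of all genes. Most diamonds lie near the dashed line, and Fasl, Pmaip1 and Casp9 are the 3 that reach a dotted line.

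**Figure D2:**
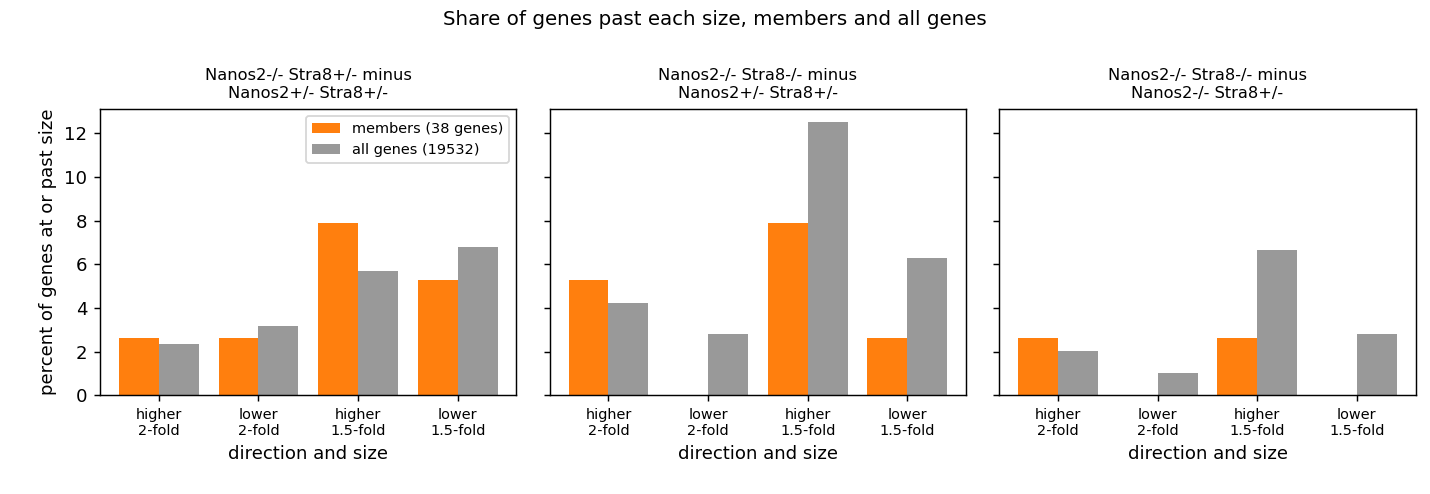
Percent of the 38 genes (left bar) and of all 19532 genes (right bar) that were higher or lower by at least 2-fold or 1.5-fold in each comparison. The bars at 2-fold higher are alike in height (2.63% and 2.35% in the left panel), and 1 gene makes up 2.63% of the 38.

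The medians of the 38 genes followed those of all genes. With the Nanos2-/- Stra8+/- column set against the control, the median log2 difference was 0.032, against 0.040 for all genes, and 21 of 38 genes lay above 0 (55.3%, against 59.3% of all genes). For the column labelled Nanos2-/- Stra8-/- against the control it was 0.20, against 0.19, and 30 of 38 lay above 0 (78.9%, against 69.3%). For the column labelled Nanos2-/- Stra8-/- against the Nanos2-/- Stra8+/- column it was 0.21, against 0.17, and 34 lay above 0 (89.5%, against 74.1%). Counts above 0 include the upward shift of that column. Above the median of all genes lay 17, 20 and 22 of the 38 in the same order (44.7%, 52.6% and 57.9%), against 50% of all genes. These comparisons share columns with one another, so their values are set side by side and not counted as separate evidence. The interquartile range of the 38 differences was 0.20, 0.26 and 0.30 in the same order, against 0.29, 0.48 and 0.32 for all genes.

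Probes of a gene often disagreed. They share the RNA and may read different transcripts, so their spread is no replicate error, but it is the nearest to an error estimate that these columns hold. The 24 genes with 2 or more probes had a median range among their probes of 0.20 on the log2 scale for the Nanos2-/- Stra8+/- column against the control, 0.39 for the column labelled Nanos2-/- Stra8-/- against the control and 0.28 between the columns without Nanos2. Over all 8511 genes with 2 or more probes these ranges were 0.20, 0.40 and 0.32. A difference smaller than such a range cannot be told apart from disagreement between probes. The other 14 genes, Pmaip1 and Casp9 among them, had a single probe and thus lack even this check. Counted by probe, 2 of 76 probes passed 2-fold upward and 3 downward in the Nanos2-/- Stra8+/- column relative to the control, against 2.31% and 3.01% of all probes. In the column labelled Nanos2-/- Stra8-/-, 3 passed upward and 2 downward relative to the control, against 4.26% and 3.94%. Between the columns without Nanos2, 1 passed upward and 0 downward, against 2.12% and 2.19%.

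In the p53 family, the 4 probes of Trp63 went opposite ways. Trp63 encodes p63, which in mouse oocytes triggers death after DNA damage. A probe for the transcript (A_52_P17264) had values of 0.368 in the column labelled Nanos2-/- Stra8-/- and 0.635 in the Nanos2-/- Stra8+/- column, against 1.29 in the control column, log2 differences of -1.81 and -1.02. The value of 0.368 lay below the negative control probe of that column, at 0.454. A second probe for the same transcript record (A_51_P216550) had values of 1.42 and 0.975 in the same columns without Nanos2, against 0.898 in the control column. One read the control as the highest column and the other as the lowest. The remaining 2 probes were built on other cDNA records and lay below 0.7 throughout, at 0.470, 0.367 and 0.346 and at 0.566, 0.615 and 0.303, with the control lowest in both. The probes spanned 2.71 on the log2 scale for the column labelled Nanos2-/- Stra8-/- against the control, the widest span among the 24 genes, so no direction is given for Trp63.

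Trp73 encodes p73, known for roles in neural development and in ciliated cells. Its probe A_52_P193555 had values of 0.835 in the column labelled Nanos2-/- Stra8-/- and 0.884 in the Nanos2-/- Stra8+/- column, against 1.88 in the control column, which are log2 differences of -1.17 and -1.09. The other probe, A_52_P410636, had 1.15 and 0.782 in those columns, against 1.0 in the control column. Both probes were thus lower in the Nanos2-/- Stra8+/- column than in the control, by 2.13-fold and 1.28-fold, and the probes disagreed in the column labelled Nanos2-/- Stra8-/-. RefSeq lists 2 starts for this gene, and its products with and without the activating N-terminal domain are known to have opposed functions. Which product each probe reads is unstated in the sources used here.

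**Figure D3:**
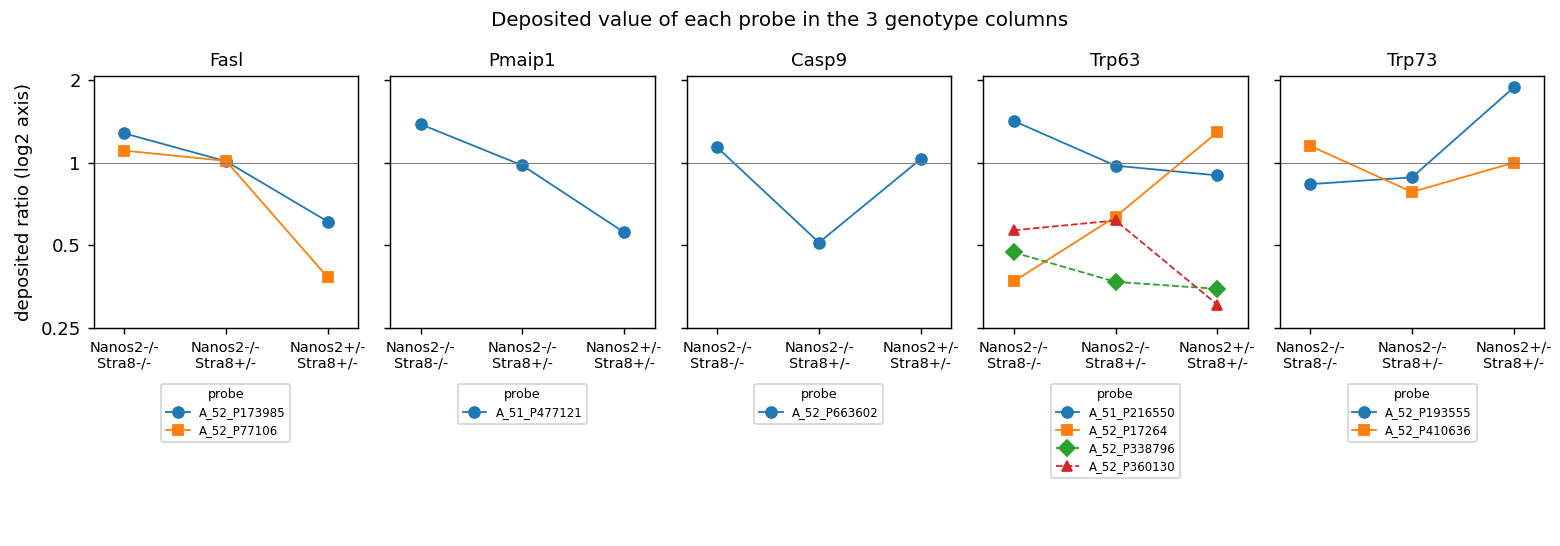
Deposited ratio of every probe of Fasl, Pmaip1, Casp9, Trp63 and Trp73 (log2 axis) in the column labelled Nanos2-/- Stra8-/-, the Nanos2-/- Stra8+/- column and the control column, with lines joining the values of a probe and dashed lines for probes below 0.7 throughout. Both Fasl probes are lowest in the control, at 0.609 and 0.381, Casp9 is lowest in the Nanos2-/- Stra8+/- column at 0.511, and probes of Trp63 and of Trp73 cross.

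The regulators of p53 stayed within 1.5-fold by their medians. Mdm2, the ubiquitin ligase that degrades p53 and is itself a p53 target, had a log2 difference of -0.22 from the control in both columns without Nanos2. Its probe A_51_P201346 had values of 0.872 and 0.994 in these columns, against 1.17 in the control column, and A_52_P469842 had 1.0 and 0.884, against 1.02. Mdm4, the inhibitor related to Mdm2, had a log2 difference of 0.31 in each of them. Among its 5 probes, 3 were higher and 2 lower than in the control in both columns, from -0.32 to 0.81 in the column labelled Nanos2-/- Stra8-/- and from -0.16 to 0.68 in the Nanos2-/- Stra8+/- column. Its probes were thus over 2-fold apart in the first of these.

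The 5 genes classed here as p53 targets had medians close to those of all genes. They had a median of 0.20 in the column labelled Nanos2-/- Stra8-/- against the control, beside 0.19 for all genes, and 0.053 in the Nanos2-/- Stra8+/- column against the control, beside 0.040. None of these 5 reached 1.5-fold in any comparison. Among the p53 targets counted with other classes are Pmaip1, Bbc3, Fas and Mdm2. They stood at 1.31, 0.41, 0.094 and -0.22 on the log2 scale in the column labelled Nanos2-/- Stra8-/- against the control. The medians of the 5 thus do not cover all targets. Zmat3, an RNA-binding protein and p53 target, and Ccng1, a cyclin that recruits a phosphatase to Mdm2, had the largest of these differences in the column labelled Nanos2-/- Stra8-/-, at 0.30 and 0.26 above the control on the log2 scale. Sesn1, a stress-induced inhibitor of mTORC1, had 0.20 there, and Perp, a desmosomal membrane protein, 0.13. Sesn2, a relative of Sesn1 that also responds to metabolic stress, was the only 1 of the 5 lower than the control by its median in both columns, at -0.12 in the column labelled Nanos2-/- Stra8-/- and -0.36 in the Nanos2-/- Stra8+/- column. Both its probes were lower in the comparison of the Nanos2-/- Stra8+/- column with it, at 0.853 and 0.858 in the Nanos2-/- Stra8+/- column, against 1.03 and 1.17 in the control column.

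The stretches upstream of the genes were searched for the p53 half-site, the 10-base consensus element that reads the same on both strands. RefSeq sequences of GRCm38.p6 were at hand for 31 of the 38 genes, with 44 starts, and the 250 bases before each start were read. The remaining genes, Pmaip1, Perp, Zmat3, Trp63, Bik, Bcl2l10 and Tnfrsf10b, were not searched. A half-site was found before 5 starts (11.4%), against 7.13% of 32851 starts of all genes, and 2 half-sites within 13 bases of each other before 0 of the 44, against 0.0639%. The p53 targets Bbc3, Fas and Sesn2 had no half-site before any start read. Another start of Sesn1 and the other starts of Bmf had none either. Only exact matches were counted, and bases further upstream or past the start were not searched. A gene without a match here may thus hold one elsewhere. The median GC content was 60.4% for the 44 stretches, against 52.4% for those of all genes. The 5 sequences with a half-site are shown, with the half-site in capitals. They include Fasl and the known targets Mdm2, Ccng1 and Sesn1. They run 5′ to 3′ on the strand of the gene, at chr1:161788496-161788745 (minus) for Fasl, chr10:117710759-117711008 (minus) for Mdm2, chr11:40755287-40755536 (minus) for Ccng1, chr10:41887189-41887438 (plus) for Sesn1 and chr2:118544588-118544837 (minus) for Bmf.
Fasl: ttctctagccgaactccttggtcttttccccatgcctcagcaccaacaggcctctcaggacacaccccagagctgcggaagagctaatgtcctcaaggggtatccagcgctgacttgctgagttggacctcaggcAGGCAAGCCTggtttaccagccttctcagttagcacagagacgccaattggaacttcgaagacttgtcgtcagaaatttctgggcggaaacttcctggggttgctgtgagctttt
Mdm2: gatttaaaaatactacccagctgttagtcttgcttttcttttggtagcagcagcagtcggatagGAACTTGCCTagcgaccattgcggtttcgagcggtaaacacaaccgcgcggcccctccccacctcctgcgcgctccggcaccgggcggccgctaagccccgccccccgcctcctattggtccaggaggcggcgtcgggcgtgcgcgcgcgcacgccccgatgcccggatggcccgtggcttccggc
Ccng1: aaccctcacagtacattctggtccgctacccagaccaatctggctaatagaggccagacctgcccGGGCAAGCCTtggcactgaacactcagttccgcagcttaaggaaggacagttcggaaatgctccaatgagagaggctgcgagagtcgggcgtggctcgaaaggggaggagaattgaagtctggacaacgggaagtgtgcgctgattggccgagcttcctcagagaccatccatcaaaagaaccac
Sesn1: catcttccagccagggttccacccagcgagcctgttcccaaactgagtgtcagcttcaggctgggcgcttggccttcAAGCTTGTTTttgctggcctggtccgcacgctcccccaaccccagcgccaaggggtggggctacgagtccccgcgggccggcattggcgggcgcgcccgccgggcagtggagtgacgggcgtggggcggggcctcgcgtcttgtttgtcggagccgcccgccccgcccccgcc
Bmf: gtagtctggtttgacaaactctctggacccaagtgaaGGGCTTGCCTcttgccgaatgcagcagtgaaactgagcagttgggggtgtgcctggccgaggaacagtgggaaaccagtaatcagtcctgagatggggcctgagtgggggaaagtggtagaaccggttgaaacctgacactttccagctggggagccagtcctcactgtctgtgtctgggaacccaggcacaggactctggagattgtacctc
The half-site begins 115 bases before the start in Fasl, 186 in Mdm2, 185 in Ccng1, 173 in Sesn1 and 213 in Bmf. A match in these letters is a description and no measure of binding. By the gene median, Fasl, Ccng1, Sesn1 and Bmf were above the control in both columns without Nanos2, and Mdm2 was below it. Those of Ccng1, Sesn1 and Bmf differed little, by 0.036 to 0.26 on the log2 scale. Of all genes, 69.3% were above the control in the column labelled Nanos2-/- Stra8-/- and 59.3% in the Nanos2-/- Stra8+/- column.

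Anti-apoptotic members of the Bcl2 family had medians below those of all genes. Over 5 genes the median was -0.0063 in the column labelled Nanos2-/- Stra8-/- against the control, beside 0.19 for all genes, and -0.019 in the Nanos2-/- Stra8+/- column, beside 0.040. Bcl2l1, which encodes Bcl-xL, was lower than the control by all 3 probes in both columns. Its values were 0.908, 1.0 and 0.917 in the column labelled Nanos2-/- Stra8-/- and 0.986, 0.896 and 0.974 in the Nanos2-/- Stra8+/- column, against 1.12, 1.12 and 1.28 in the control column. The median differences of Bcl2l1 were -0.31 and -0.32. Bcl2l10, an ovary-rich member in the mouse, had a single probe at 0.995 and 0.784 in these columns, against 1.07 in the control column.

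Mcl1, a short-lived survival protein, was the only anti-apoptotic member with all probes higher than the control in both columns. It had values of 1.12 and 1.27 in the column labelled Nanos2-/- Stra8-/- and 0.968 and 0.997 in the Nanos2-/- Stra8+/- column, against 0.955 and 0.816 in the control column. Bcl2, the founding member, had 1 of 3 probes (A_52_P438280) at 0.544 in the column labelled Nanos2-/- Stra8-/-, while the Nanos2-/- Stra8+/- column had 1.08 and the control column 1.07. The probe A_52_P534870 of Bcl2 was highest there instead, at 1.36, and the median difference was 0.090. Bcl2l2 stayed within 0.02 of 0 in every comparison by its median.

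The pro-apoptotic members, pooled, had a higher median than the anti-apoptotic ones in the column labelled Nanos2-/- Stra8-/-. Together 9 of 10 effectors and BH3-only genes were above 0 against the control, with a median of 0.30, and 2 of 5 anti-apoptotic genes. Of all genes, 69.3% were above 0 there. The median of all genes was 0.19 there, and 6 of the 10 lay above that. The 8 BH3-only genes alone had a median of 0.21, close to that of all genes, and 4 of the 8 lay above it. The effectors Bak1 and Bok had 0.38 and 0.35. In the Nanos2-/- Stra8+/- column 7 of 10 lay above 0 against the control, beside 59.3% of all genes, and 5 of 10 lay above the median of all genes. The classes hold few genes, and the difference between them was not tested.

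Of the effectors that form pores in the outer mitochondrial membrane, Bak1 had values of 1.05 and 1.45 in the column labelled Nanos2-/- Stra8-/- and 0.971 and 0.964 in the Nanos2-/- Stra8+/- column, against 0.974 and 0.924 in the control column. Only A_52_P225207 set the first column apart, and its partner differed by 0.11 on the log2 scale. Bok, a relative of Bax and Bak1, had 1.27 and 0.985 by its single probe, against 0.994 in the control column.

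Among the 8 BH3-only genes Pmaip1 was the highest relative to the control in both columns. Its protein, Noxa, binds mainly Mcl1 and is a known p53 target. Its single probe had values of 1.38 in the column labelled Nanos2-/- Stra8-/- and 0.976 in the Nanos2-/- Stra8+/- column, against 0.556 in the control column. These are 2.48-fold and 1.76-fold above the control, and a log2 difference of 0.50 between the columns without Nanos2. Bik, a BH3-only protein of the endoplasmic reticulum, was next, with values of 1.03 and 1.10 in these columns, against 0.6997 in the control column, or 1.47-fold and 1.58-fold.

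The other BH3-only genes differed less. Bbc3, which encodes the strong p53 target Puma, had a value of 1.25 in the column labelled Nanos2-/- Stra8-/- and 1.0 in the Nanos2-/- Stra8+/- column, against 0.940 in the control column. Bcl2l11, or Bim, had log2 differences from the control of 0.17 and 0.21 in these columns, with all 3 probes above 0 in both. Hrk, a member best known in neurons, had 0.10 and 0.081, and Bid, the link cleaved by caspase 8, had 0.25 and -0.029. Bmf had 0.13 and 0.036, and Bad, which binds Bcl-xL, had -0.0072 and -0.096, the lowest of the class in both.

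All 6 caspases had a single probe, and all 6 were above the control in the column labelled Nanos2-/- Stra8-/-, with a median of 0.26 beside 0.19 for all genes. Of all genes 69.3% were above the control there, and 4 of the 6 caspases lay above the median of all genes. In the Nanos2-/- Stra8+/- column 3 of 6 were above the control, beside 59.3% of all genes. Casp9 is activated on the apoptosome and starts the mitochondrial caspase cascade. Its value was 1.14 in the column labelled Nanos2-/- Stra8-/- and 0.511 in the Nanos2-/- Stra8+/- column, against 1.03 in the control column. It was 2.02-fold lower in the Nanos2-/- Stra8+/- column than in the control, while the column labelled Nanos2-/- Stra8-/- was 2.23-fold above the Nanos2-/- Stra8+/- column and lay close to the control. No second probe was there to set beside it, and with 0.1 added to each value the log2 difference of -1.01 in the Nanos2-/- Stra8+/- column became -0.89, short of 2-fold.

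Casp12, a caspase of the endoplasmic reticulum, was the highest caspase relative to the control in the column labelled Nanos2-/- Stra8-/-. It had values of 1.32 there and 0.990 in the Nanos2-/- Stra8+/- column, against 0.804 in the control column, 1.65-fold and 1.23-fold. Casp2, an initiator linked to p53 through the PIDDosome, had 1.26 and 0.950, against 1.0 in the control column. The executioner Casp6 had log2 differences from the control of 0.31 in the column labelled Nanos2-/- Stra8-/- and 0.094 in the Nanos2-/- Stra8+/- column. Casp8, the initiator below the death receptors, had 0.12 in both, and the inflammatory caspase Casp1 had 0.21 and -0.0013.

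The apoptosome and its inhibitors showed probe-specific values in the column labelled Nanos2-/- Stra8-/-. Diablo, which is released from mitochondria and relieves inhibition of caspases, was the member lowest relative to the control there, at 1.56-fold lower. Its probes had values of 0.999 and 0.592 in the column labelled Nanos2-/- Stra8-/- and 0.887 and 1.0 in the Nanos2-/- Stra8+/- column, against 1.23 and 1.17 in the control column. Both were below the control in both columns, but they placed the lowest column differently.

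Apaf1, the scaffold of the apoptosome, had 2 probes above the control and 1 below it in both columns. Its probes had values of 1.22, 1.10 and 0.611 in the column labelled Nanos2-/- Stra8-/- and 0.980, 1.0 and 1.0 in the Nanos2-/- Stra8+/- column, against 0.725, 0.908 and 1.21 in the control column. The span among them was 1.74 on the log2 scale for the first of these columns against the control. Xiap, a direct inhibitor of caspases, had probes from -0.23 to 0.84 in that comparison. Cycs, which encodes somatic cytochrome c, had 3 probes in close accord, from 0.073 to 0.11 in that comparison, and a median of -0.099 in the Nanos2-/- Stra8+/- column.

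Among the death receptor genes, Fasl, whose protein is made by cytotoxic lymphocytes and has been described in the testis, was higher by both probes in both columns. Probe A_52_P173985 had values of 1.28 in the column labelled Nanos2-/- Stra8-/- and 1.01 in the Nanos2-/- Stra8+/- column, against 0.609 in the control column. Probe A_52_P77106 had 1.11 and 1.01 in these columns, against 0.381 in the control column. The columns without Nanos2 thus lay near each other, and the control lay below both.

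By the median of its probes Fasl was 2.47-fold higher in the column labelled Nanos2-/- Stra8-/- and 2.102-fold higher in the Nanos2-/- Stra8+/- column than in the control. In the column labelled Nanos2-/- Stra8-/- both probes passed 2-fold, with log2 differences of 1.07 and 1.54. It was the only 1 of the 24 genes with 2 or more probes for which that held in any comparison, where 0.54% of all such genes did so upward and 0.529% downward. In the Nanos2-/- Stra8+/- column only 1 probe passed, at 1.41 beside 0.73. For every probe at least 2-fold, 0 of 24 genes were called there in either direction, against 0.294% higher and 0.564% lower. Between the columns without Nanos2 no gene was called by every probe either, against 0.094% higher and 0.0352% lower, and Fasl differed by 0.23.

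The receptors and the adaptor did not share the size of this difference. Fas, the receptor of Fasl and a p53 target, had values of 1.12 and 1.07 in the column labelled Nanos2-/- Stra8-/- and 0.847 and 0.855 in the Nanos2-/- Stra8+/- column, against 1.02 and 1.04 in the control column. Its probes agreed closely, with log2 differences from the control of 0.094 and -0.27 by their median. Fadd, the adaptor that recruits caspase 8, had values of 1.13 and 1.38 in the column labelled Nanos2-/- Stra8-/- and 0.989 and 1.0 in the Nanos2-/- Stra8+/- column, against 0.950 and 0.892 in the control column. Tnfrsf10b, the receptor of the ligand Trail, had log2 differences of 0.33 and -0.0033 in these columns, and its 3 probes ran from 0.19 to 0.42 in the first.

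Other genes of the p53 and death pathways were read from lists of 76 genes, of which 69 had a probe. In the Nanos2-/- Stra8+/- column 2 were at least 2-fold higher than in the control and 0 lower, beside 2.35% and 3.16% of all genes. For the column labelled Nanos2-/- Stra8-/- 3 were higher and 1 lower, beside 4.24% and 2.82%. Between these columns 1 was higher and 1 lower, beside 2.04% and 1.03%. With 69 genes, these counts too are near the shares of all genes. By the gene median, all 29 measured genes of the p53 list stayed within 2-fold in all 3 comparisons. Of their 64 probes, 3 passed 2-fold upward and 1 downward in the column labelled Nanos2-/- Stra8-/- relative to the control, beside 4.26% and 3.94% of all probes. These were 1 probe each of Sesn3 at 1.51, Eda2r at 1.42, Cop1 at 1.02 and Rrm2b at -1.02 on the log2 scale. Between the columns without Nanos2, 1 probe of Atr was at 1.20 and 1 of Rrm2b at -1.26, beside 2.12% and 2.19% of all probes. In the death receptor list, a probe of Tnfrsf21 was at 2.38 in the Nanos2-/- Stra8+/- column against the control. It was at -1.47 between the columns without Nanos2, while the gene medians of Tnfrsf21 were 0.31 and -0.14. Tnf, the inflammatory cytokine, had values of 0.978 in the column labelled Nanos2-/- Stra8-/- and 2.44 in the Nanos2-/- Stra8+/- column, against 0.459 in the control column. Casp14, a caspase of the epidermis, had 1.28 and 1.20 in these columns, against 0.405 in the control column.

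Tnfsf12, which encodes the cytokine Tweak, stood apart in the column labelled Nanos2-/- Stra8-/-, at 1.15, while the Nanos2-/- Stra8+/- column had 0.347 and the control column 0.334. Both lower values lay below the negative control probe of their columns, at 0.354 and 0.352, so the size of this difference is uncertain. Tnf, Casp14 and Tnfsf12 each had a single probe. Bnipl, a relative of the Bnip proteins, was lower by both probes, at 0.594 and 0.563 in the column labelled Nanos2-/- Stra8-/- and 0.969 and 0.998 in the Nanos2-/- Stra8+/- column, against 1.48 and 1.57 in the control column.

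The makeup of the gonads was read from marker lists. In whole tissue, fewer cells of a type and less RNA per cell cannot be told apart. All 16 measured markers of germ, Sertoli and Leydig cells had every probe outside the range below 0.7, but the ratios give no level by which to check the tissue. Against the control, germ cell markers had a median log2 difference of 0.027 in the column labelled Nanos2-/- Stra8-/- and 0.074 in the Nanos2-/- Stra8+/- column, from -0.64 to 0.68 and from -0.89 to 0.62. Sertoli cell markers had 0.17 and 5e-05, and Leydig cell markers -0.11 and -0.051.

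Markers of other cells differed between the columns in part. Endothelial markers had medians of 0.15 in the column labelled Nanos2-/- Stra8-/- and 0.060 in the Nanos2-/- Stra8+/- column against the control, and red blood cell markers 0.31 and 0.36. Of the 4 mesonephric genes, 2 were at least 2-fold higher in the column labelled Nanos2-/- Stra8-/- and 3 in the Nanos2-/- Stra8+/- column, beside 4.24% and 2.35% of all genes. Ret, the receptor of GDNF, had 2.63 and 1.53 in these columns, against 0.369 in the control column, and Lhx1 had log2 differences of 1.33 and 1.38. The others differed in direction, since Pax8 had -0.35 and -0.46, and Cdh16 -0.28 and 1.04. Of 3 macrophage markers, all had at least 1 probe below 0.7 throughout, and their gene values ran from 0.086 to 0.21 in the column labelled Nanos2-/- Stra8-/- and from 0.14 to 0.22 in the Nanos2-/- Stra8+/- column. Among them Ptprc, the common antigen of white blood cells, had log2 differences from -2.00 to 0.39 over its 4 probes in the column labelled Nanos2-/- Stra8-/-. No marker list for T cells was read, and the part of white blood cells or of mesonephric tissue in the Fasl and Pmaip1 values was not tested.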

How the data were processed

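The study measured total RNA of male gonads at stage E14.5 on Agilent 1-colour arrays, from Cy3-labelled cRNA per the labels' protocols. The submitters' processing notes name Agilent Feature Extraction, version 9.5. The deposited values were linear ratios, in 1 column per group. How the authors combined the replicates that the titles name, and how the values were normalized, is unstated in the sources used here. The division of probes by a middle value was inferred from the deposited ratio values themselves. The arrays give no count or depth, and their number limits the precision.

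Of 41267 entries, 93 control spots were left out, which left 41174 array probes. The platform annotation gave 1 symbol to 32664 probes, several to 45 and none to 8465. Gene identifiers of 32524 probes were found in a RefSeq table of GRCm38.p6, which changed 0 symbols. Differences are log2 ratios between columns with no pseudocount, and a gene took the median over its probes. The steps were tested on simulated data. No test was possible. Python 3.11.15, pandas 2.3.3 and numpy 2.4.6 were used.

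The genes, their classes and the lists were chosen with earlier results of these data known. Every one of the 38 genes could be named. Values by probe were due for Trp63, Trp73 and genes past 2-fold by the gene value or by a single probe, and other genes are examples by class, several of them chosen after their values were seen. Alternatives were the probe with the highest mean, the mean over probes, centring, quantile normalization, a floor at each column's median, leaving out probes below 0.7 throughout, 0.1 added to each value, every probe past 2-fold, and 1.5-fold as the size.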

Additional observations from a re-analysis of the deposited data

How the results depend on the processing

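No paired analysis was possible because each group had a single column and no test was made. For the same reason no replicate could be left out. The counts of genes at least 2-fold higher or lower are given here in that order. Set against the control, the Nanos2-/- Stra8+/- column had 1 and 1 of the 38 genes. The highest-mean probe gave 0 and 2, the floor at the column median 0 and 0, 0.1 added to each value 0 and 0, and 1.5-fold as the size 3 and 2. Requiring every probe left 0 higher. The column labelled Nanos2-/- Stra8-/- had 2 and 0. The floor gave 0 higher, and the highest-mean probe and the 1.5-fold size gave 1 lower each. Between the columns without Nanos2, the floor gave 0 higher in place of 1. The floor raises most low values to the same level, so it removes such differences by its construction.

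The median of the 38 genes in the first comparison was 0.032 and turned to -0.020 with centred columns and to -0.025 with quantile normalization, so it has no settled sign. Quantile normalization also brought the median to 0.061 in the second comparison and to 0.11 in the third, beside 0.037 and 0.058 for all genes. The other 58 alternatives for these counts and medians left them alike, to within 1.5 times for a count and 0.1 on the log2 scale for a median. Fasl kept a positive difference from the control under every alternative run, but in the Nanos2-/- Stra8+/- column it did not reach 2-fold by its highest-mean probe (0.73), with 0.1 added (0.93) or with the floor (0.11). Casp9 fell short of 2-fold in the same comparison with 0.1 added (-0.89) and with the floor (-0.080), and between the columns without Nanos2 with the floor (0.22). Pmaip1 in the column labelled Nanos2-/- Stra8-/- was at 1.17 with 0.1 added and fell short with the floor (0.55).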
